A study of Mus musculus with 12 samples.

Results

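The 46 mitosis and kinetochore genes described here are 8 mitotic kinases, cyclins and their phosphatase, 18 kinetochore and checkpoint genes, 13 kinesins and cytokinesis genes, and 7 condensin and chromosome structure genes. They were chosen by name, and each was read through the probe sets that the platform annotation assigns to that gene alone. Such a probe set existed for 45 of the 46 genes, out of 12263 genes measured above the filter. Ccnb1 was assigned none, so it has no expression value here and enters only the promoter counts. The 45 genes had 101 probe sets, of which 90 passed a filter that kept the brighter 60% by mean level. Each gene was read by its brightest kept probe set, and 29 genes had more than 1. Just above the filter at 6.51 on the log2 scale lay a minor probe set of Ncapd2 at 6.59, and just below it one of Kif2c at 6.495. Neither was used to read its gene.

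The series profiled sorted C57BL/6 mouse cells on Affymetrix arrays after knockdown of ZNF335, the zinc finger protein Zfp335, or a control knockdown, both begun at embryonic day 14.5. There were 4 groups of 3 arrays, which are short term control, short term knockdown, long term control and long term knockdown, where short term is 1 day and long term 5 days after knockdown. The series design names short hairpin RNA, whereas the titles name small interfering RNA, and the control agent is not specified further. The source name of the controls says mouse neurons and that of the knockdowns only cells, and no label names the tissue. Every sample carried stage E15.5 and a harvest at P0, so these labels did not separate the time points. In the 6 long term samples the title and source name were contradicted by the description, which names the other group, and the titles were followed. With the description's groups in place of the titles', the 5 day differences between knockdown and control take the opposite sign and the long term arms of the time comparisons change places, so the direction of the former rests on the titles. Whether the 3 samples of a group are separate animals is not stated, so the p-values reflect only how these samples vary, which may be technical variation.

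When a cell enters mitosis, CDK1 bound to a B-type cyclin phosphorylates its substrates, condensin compacts the chromosomes, and microtubules attach to kinetochores built on centromeres that carry the histone CENP-A. The spindle checkpoint holds back the anaphase-promoting complex, a ubiquitin ligase, until each kinetochore is attached, after which separase opens the cohesin rings and the cell divides. In the embryonic cortex these genes are expressed in cycling radial glia and intermediate progenitors and are low in neurons. Many are transcribed in the late cell cycle under the DREAM and B-MYB complexes, which contact a CHR element, and under NF-Y, which binds CCAAT boxes.

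The proximal promoters are shown because they carry a feature that the choice of genes did not use. RefSeq windows of 300 bases on GRCm38.p6, from 250 bases before to 50 after the transcription start, were found for 38 of the 46 genes. The CHR element was searched as TTTGAA or TTTAAA and the CCAAT box as CCAAT, on both strands and with overlaps between them allowed. A CHR match was present for 84.2% of the 38 genes and for 30.6% of the 27025 genes with a window. A CCAAT match was present for 76.3% and 41.1%. Both were present for 28 of the 38 genes (73.7%) and for 12.2% of all genes. By role, both were present for 5 of 5 kinase and cyclin genes, 10 of 16 kinetochore and checkpoint genes, 8 of 11 kinesin and cytokinesis genes and 5 of 6 condensin and chromosome structure genes. These are letter matches and no test was made.

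The promoters of Ccnb2, Spc25, Hmmr and Ncapg follow, 1 gene for each role, each carrying both elements and each lower at 5 days in controls after quantile normalization. They are read 5′ to 3′ on the gene's strand, with the CHR and CCAAT matches in capitals (ATTGG is CCAAT on the other strand). Ccnb2 lies at chr9:70421505-70421804 on the minus strand, Spc25 at chr2:69206164-69206463 on the minus strand, Hmmr at chr11:40733388-40733687 on the minus strand and Ncapg at chr5:45669675-45669974 on the plus strand.
Ccnb2: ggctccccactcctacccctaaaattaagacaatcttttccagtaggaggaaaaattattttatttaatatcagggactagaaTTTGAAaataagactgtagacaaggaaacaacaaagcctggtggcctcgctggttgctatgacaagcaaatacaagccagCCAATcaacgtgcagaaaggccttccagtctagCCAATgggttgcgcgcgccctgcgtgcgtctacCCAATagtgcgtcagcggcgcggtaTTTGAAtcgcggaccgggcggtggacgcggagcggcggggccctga
Spc25: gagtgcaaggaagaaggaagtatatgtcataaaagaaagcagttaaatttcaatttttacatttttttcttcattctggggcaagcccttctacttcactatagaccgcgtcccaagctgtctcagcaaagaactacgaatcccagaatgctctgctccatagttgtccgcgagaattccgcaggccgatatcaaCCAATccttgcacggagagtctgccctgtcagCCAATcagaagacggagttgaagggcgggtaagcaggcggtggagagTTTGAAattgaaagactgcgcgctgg
Hmmr: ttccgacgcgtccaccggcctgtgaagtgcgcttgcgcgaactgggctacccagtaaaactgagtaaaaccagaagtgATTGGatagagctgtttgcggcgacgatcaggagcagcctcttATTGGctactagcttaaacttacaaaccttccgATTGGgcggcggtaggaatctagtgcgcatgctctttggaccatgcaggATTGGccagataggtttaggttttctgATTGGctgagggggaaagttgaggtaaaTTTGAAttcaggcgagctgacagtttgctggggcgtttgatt
Ncapg: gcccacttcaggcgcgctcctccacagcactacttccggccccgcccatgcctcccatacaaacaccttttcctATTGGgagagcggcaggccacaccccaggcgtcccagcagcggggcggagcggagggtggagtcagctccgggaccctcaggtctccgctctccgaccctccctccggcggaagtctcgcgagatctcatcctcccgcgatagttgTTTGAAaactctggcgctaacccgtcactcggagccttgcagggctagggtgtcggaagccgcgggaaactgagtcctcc

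In Ccnb2 the CCAAT boxes begin at -87, -54 and -21 relative to the start, 33 bases apart, with CHR matches beginning at -167 and at position 5. Spc25 has CCAAT boxes at -55 and -23, 32 bases apart, and a CHR match at 25. Hmmr has CCAAT matches on the other strand at -172, -129, -96, -47 and -20 and a CHR match at 9. Ncapg has 1 CCAAT match at -176 and a CHR match at -30.

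Levels are given as log2 of the quantile normalized intensity plus 16, and differences as log2 fold changes on that scale, which understates changes of dim genes. Group means were compared with limma in 1 fit of all 12 arrays, with Benjamini-Hochberg adjustment over 27022 probe sets and a threshold of 0.05. The short term arrays formed 2 sets that crossed the groups. Control 2 and knockdowns 2 and 3 had strong bioB hybridisation controls (11.24 to 11.44 on the log2 scale), and controls 1 and 3 and knockdown 1 had weak ones (8.52 to 9.89). Correlations over probe sets were 0.9753 to 0.9784 among the strong and 0.923 to 0.989 among the weak arrays, but 0.597 to 0.775 between the sets. Chip lots differed between the times without exception, so lot and time cannot be told apart. Long term control 1 and the 3 long term knockdowns were read on 1 scanner, and long term controls 2 and 3 on another, which also read the short term arrays. Scanner and time therefore cannot be told apart in the knockdowns. The Actb ratio of 3 prime to 5 prime signal was 8.76 in long term knockdown 2, against 1.51 to 2.91 in the other arrays, a sign of lower RNA quality. Among those others it went with time, at 2.09 to 2.91 in the short term and 1.51 to 1.93 in the long term arrays. Their Gapdh ratios overlapped between the times. The targeted gene did not check the labels. Its deposited intensity was 139, 46.1 and 127 in the short term controls against 136, 53.7 and 41.0 in the knockdowns, and 109, 150 and 179 against 103, 34.3 and 151 in the long term (log2 fold change -0.64 at both times, limma adjusted p = 0.917 and 1). Beside the neurons named in the controls' label, some markers of progenitors and of neurons were bright, with Pax6 between 9.29 and 10.67 and Dcx between 11.52 and 12.49 over the 12 arrays. Other markers were dimmer, with the progenitor gene Hes1 between 5.72 and 7.62 and the neuronal gene Nefm between 5.48 and 8.55.

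The largest difference among these genes lay between the time points. In control cells all 45 genes had lower normalized levels at 5 days than at 1 day, with a median log2 fold change of -1.07 and a range from -1.92 to -0.27, where the median over all genes was 0.06. Of the 45 genes, 19 fell past the threshold (limma), where 1.25% of all probe sets did and 2.02% rose. In knockdown cells the 45 were again lower, with a median of -1.07 and a range from -1.83 to -0.14 beside a median over all genes of 0.21, and 18 of 45 fell past the threshold, where 1.93% of all probe sets did and 4.05% rose. With the description's groups 22 and 16 fell, where 1.99% and 1.31% of all probe sets did, and the medians were -1.14 and -0.89. All 3 long term values lay below all 3 short term values for 35 genes in controls (12.7% of probe sets) and for 35 in knockdowns (9.43%). The calls were shared for 16 genes, and 21 genes were called in at least 1 of the comparisons. For 30 of 45 genes all 6 long term values lay below all 6 short term values, where 6.01% of probe sets did. In cells measured in bulk, a lower normalized level does not tell fewer dividing cells from less RNA per cell, nor either of these from chip lot or scaling.

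**Figure D1:**
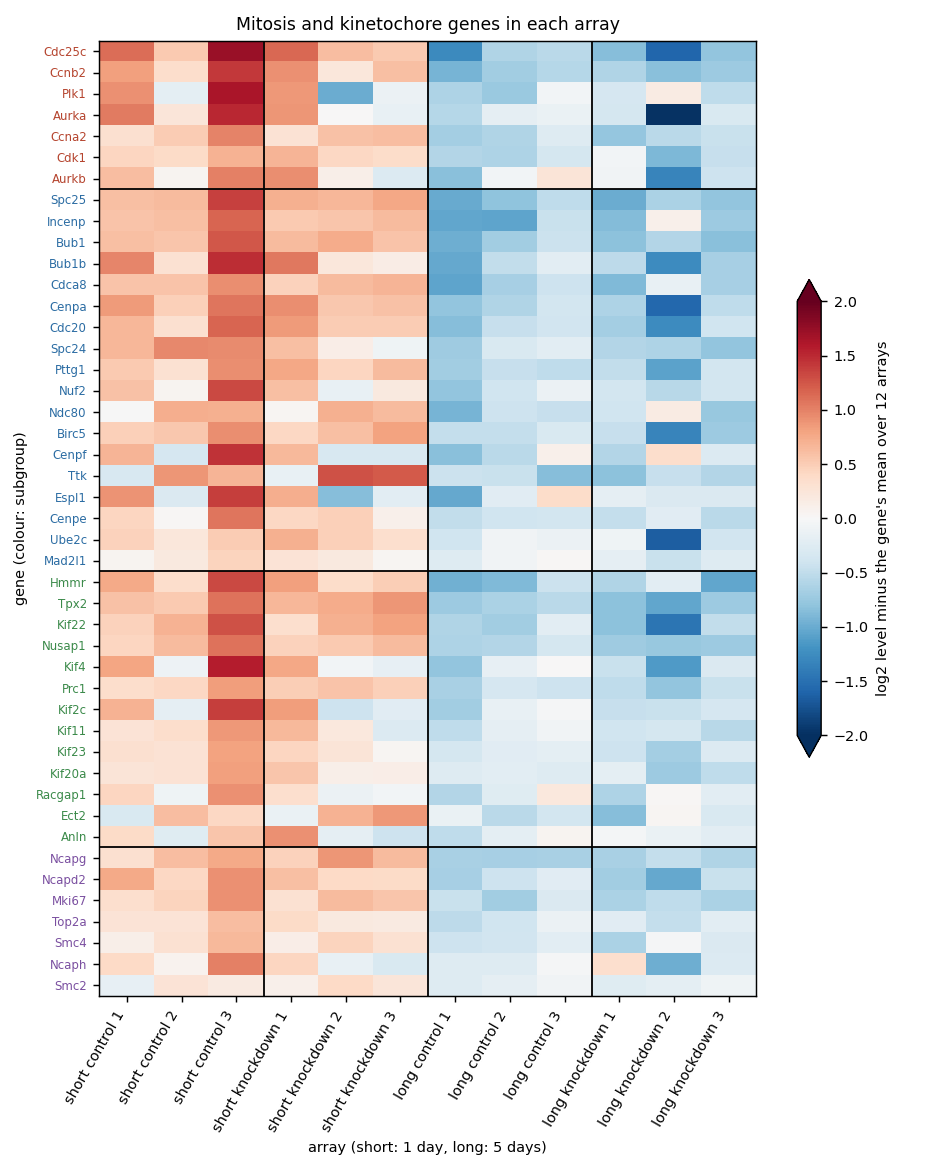
Quantile normalized log2 level of each of the 45 genes (rows, names coloured by role) in each of the 12 arrays (columns), shown as the difference from that gene's mean over the arrays, with colours ending at 2 on either side. The 1 day arrays are mostly above and the 5 day arrays mostly below the mean, and 30 of 45 genes have all 6 long term values below all 6 short term values; directions hold for this normalization and for 31 of 45 genes turn in the controls on the deposited scale.

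The direction of these differences depends on how the arrays are brought to a common scale. On the deposited scale the median over all genes was 1.11 higher at 5 days than at 1 day in controls and 1.18 higher in knockdowns, and with arrays scaled to the same median it was 0.96 and 1.03 higher. The 45 genes then had medians of 0.21 and 0.18 on the deposited scale and of 0.06 and 0.03 after median scaling, so that 14 and 15 genes were lower as deposited and 19 and 20 after median scaling. Relative to the median of all genes, their median was -1.13 and -1.28 after quantile normalization, -0.897 and -1.001 on the deposited scale, and -0.901 and -1.003 after median scaling. Below the median of all genes lay 45 and 45 of them after quantile normalization and 44 and 45 with either of the other scalings. The exception in controls was Smc2, at 0.19 above it. Split by direction, the calls among the 45 genes were 19 lower and 0 higher in controls after quantile normalization, 1 lower and 6 higher as deposited, and 0 lower and 2 higher after median scaling. In knockdowns they were 18 and 0, 1 and 5, and 0 and 1. Of all 27022 probe sets, in the same order of scalings, 339, 345 and 442 were called lower and 547, 12790 and 8879 higher in controls. In knockdowns 522, 506 and 674 were called lower and 1094, 13027 and 9734 higher. Over the same 27022 probe sets in each scaling 38.3% of the calls in controls were lower after quantile normalization, 2.63% as deposited and 4.74% after median scaling, and in knockdowns 32.3%, 3.74% and 6.48%. The changes below are therefore changes relative to the other genes of the same arrays.

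**Figure D2:**
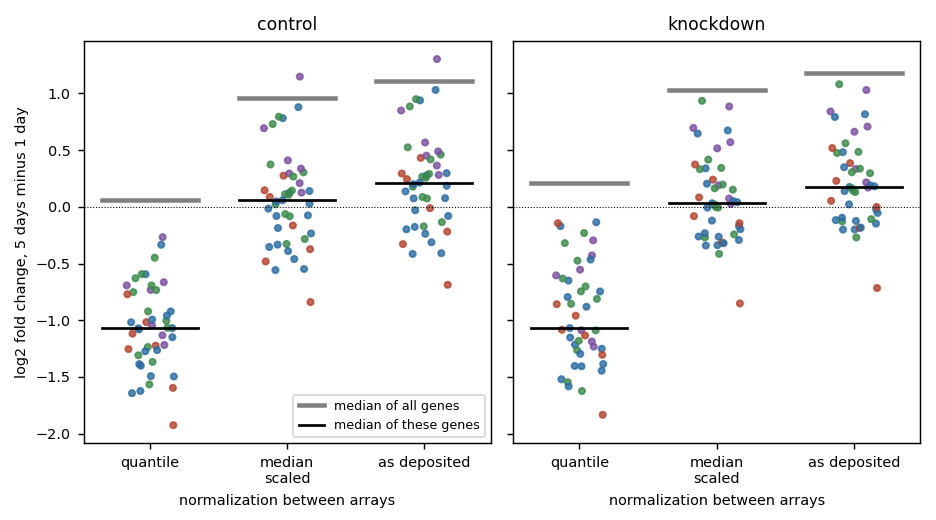
Log2 fold change from 1 day to 5 days (vertical axis) of each of the 45 genes (points, coloured by role) in control and knockdown cells under 3 ways of scaling the arrays, with the median of these genes (black bar) and of all genes (grey bar). The sign of the genes' median turns from -1.07 to 0.21 in controls between quantile normalization and the deposited scale, where it lies at -1.13 and -0.897 relative to the median of all genes.

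The control counts depended on single arrays. Without long term control 1 or 2, 2 genes were called, without long term control 3 there were 6, without short term control 3 there were 3 and without short term control 1 there were 11. Over all probe sets the counts were then 279, 247, 305, 302 and 614 in the same order, in place of 886. With the short term control of strong hybridisation controls alone, a single array assumed to vary like the other groups, 44 of 45 genes were lower, 14 were called (9.47% of all probe sets) and the median was -0.88. With the 2 of weak hybridisation controls alone, 45 were lower, 22 were called (1.81%) and the median was -1.21. Using only control arrays of the scanner common to both times, long term controls 2 and 3, 2 were called and the median was -1.01. Of all probe sets 279 were called. In the knockdowns, 29 genes were called against the strong arrays (18.7%) and 0 against the single weak array (0.344%), again under that assumption, with medians of -1.01 and -1.08. Without short term knockdown 2 or 3, 4 and 2 were called, and without long term knockdown 1 or 3, 11 each. Over all probe sets the counts were then 349, 341, 707 and 525 in the same order, in place of 1616.

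Among the mitotic kinases and cyclins, 3 of 7 fell with time in controls and 4 of 7 in knockdowns after quantile normalization, and 2 of these in each, Cdc25c and Ccnb2, stayed below 0 under all 3 scalings while Ccna2, and Cdk1 in knockdowns, turned. Cdc25c, the phosphatase that activates CDK1, had levels of 9.96, 9.37 and 10.58 in the short term controls, then 7.57, 8.25 and 8.30 at 5 days. Its groups did not overlap, with a log2 fold change of -1.92 (SE 0.37, adjusted p = 0.0211). In the knockdowns it went from 9.99, 9.46 and 9.37 to 7.997, 7.26 and 8.06 (-1.83, SE 0.37, adjusted p = 0.0211), again without overlap. This was the largest difference of the 45 genes at either condition.

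Ccnb2, a B-type cyclin partner of CDK1, read 10.22, 9.75 and 10.81 in the short term and 8.47, 8.71 and 8.82 in the long term controls (-1.60, SE 0.29, adjusted p = 0.0167). The corresponding knockdown levels were 10.32, 9.63 and 10 against 8.80, 8.56 and 8.67 (-1.30, SE 0.29, adjusted p = 0.0305), a difference that was -0.00026 as deposited. Every long term value lay below every short term value in both conditions. Ccna2, the cyclin of S phase and mitotic entry, went from 11.30, 11.48 and 11.97 to 10.29, 10.38 and 10.72 in controls (-1.12, SE 0.24, adjusted p = 0.0326), a direction that held after quantile normalization and turned to 0.25 as deposited and 0.09 after median scaling. In knockdowns it read 11.27, 11.56 and 11.60 at 1 day and 10.21, 10.44 and 10.53 at 5 days (-1.08, adjusted p = 0.0291), turning to 0.23 and 0.08.

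CDK1 itself, read by Cdk1, had a log2 fold change of -1.02 in controls (adjusted p = 0.052) and -0.96 in knockdowns (adjusted p = 0.0476), and its short term values of 11.21 to 11.54 did not reach down to its long term values of 9.94 to 10.78. The spindle kinases did not pass the threshold. Aurka, which builds the spindle poles, had -1.22 in controls and -1.13 in knockdowns with standard errors of 0.49, and Aurkb, the kinase of the chromosomal passenger complex, -0.77 and -0.86 with 0.44. Plk1, a kinase of centrosome maturation and mitotic exit, had -1.25 in controls and -0.14 in knockdowns (SE 0.53, adjusted p = 0.255 and 0.87), and its long term range of 7.44 to 8.34 lay within its short term range of 7.18 to 9.80.

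Among kinetochore and checkpoint genes, 8 of 18 fell in controls and 7 of 18 in knockdowns after quantile normalization, and 5 of the 8 and 5 of the 7 were lower under all 3 scalings. The Ndc80 complex, whose 4 subunits bind microtubules at the kinetochore, is covered in full by Spc25, Spc24, Ndc80 and Nuf2. Spc25 read 10.60, 10.63 and 11.38 in the short term controls, then 8.99, 9.19 and 9.49 at 5 days (-1.64, SE 0.25, adjusted p = 0.00733). In knockdowns it read 10.71, 10.67 and 10.77 and then 9.01, 9.37 and 9.21 (-1.52, SE 0.25, adjusted p = 0.00975). The times were apart in both conditions by more than the range within any group. The other subunits had -1.26 (Spc24, adjusted p = 0.0196), -1.07 (Ndc80, adjusted p = 0.11) and -1.08 (Nuf2, adjusted p = 0.121) in controls, and -0.88, -0.79 and -0.65 in knockdowns with adjusted p of 0.0559, 0.159 and 0.255.

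Bub1, a checkpoint kinase that marks the inner centromere for shugoshin, had levels of 10.04, 9.98 and 10.68 against 8.47, 8.74 and 9.01 in controls (-1.50, SE 0.24, adjusted p = 0.0099). In knockdowns the levels were 10.06, 10.17 and 9.999 against 8.62, 8.86 and 8.61 (-1.39, SE 0.24, adjusted p = 0.0126). No value of 5 days reached a value of 1 day. The remaining checkpoint genes did not pass by their brightest probe sets. Bub1b, the BubR1 subunit of the mitotic checkpoint complex, had -1.49 and -1.30 (adjusted p = 0.0646 and 0.0714). The kinase gene Ttk had -0.99 and -1.41 (adjusted p = 0.257 and 0.0749). A dimmer probe set of Ttk had -1.08 and -1.40 (limma adjusted p = 0.107 and 0.0344). Mad2l1, which encodes the Cdc20 inhibitor MAD2, had -0.33 and -0.46 (adjusted p = 0.441 and 0.171).

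The chromosomal passenger complex corrects faulty attachments and consists of Aurora B with Incenp, Cdca8 (borealin) and Birc5 (survivin). Cdca8 went from 11.49, 11.49 and 11.84 to 9.86, 10.25 and 10.50 in controls (-1.40, SE 0.25, adjusted p = 0.0167) and was lower in all 3 scalings there. In knockdowns it went from 11.37, 11.54 and 11.59 to 10.04, 10.76 and 10.25 (-1.15, SE 0.25, adjusted p = 0.0301), with 0.14 on the deposited scale. Incenp fell in controls (-1.62, SE 0.30, adjusted p = 0.0194) and had -1.07 in knockdowns (adjusted p = 0.0652). Birc5 had -1.07 in controls (adjusted p = 0.0513). In knockdowns it read 11.38, 11.57 and 11.77 and then 10.51, 9.64 and 10.24 (-1.44, SE 0.26, adjusted p = 0.0134), all long term values being lower.

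At the centromere, Cenpa, the histone H3 variant that marks it, had -1.39 in controls (adjusted p = 0.0381) and -1.58 in knockdowns (adjusted p = 0.0184), of which the first turned to 0.07 as deposited. The kinetochore motor gene Cenpe had -0.92 and -0.75 and Cenpf -1.02 and -0.17, none past the threshold by its brightest probe set. Another probe set of Cenpf had -1.59 in controls and -2.07 in knockdowns (limma adjusted p = 0.104 and 0.0331). A dimmer one of Cenpf had -0.81 and -0.43 and did not pass. Of the genes for mitotic exit, the anaphase-promoting complex activator Cdc20 had -1.27 (adjusted p = 0.0464) and -1.40 (adjusted p = 0.0258), and the securin gene Pttg1, whose product restrains separase, -1.15 (adjusted p = 0.0376) and -1.25 (adjusted p = 0.0216). Both were lower after quantile normalization, and both turned on the deposited scale in controls, to 0.21 and 0.19. Ube2c, the ubiquitin-conjugating enzyme of that complex, had -0.59 and -1.22, and Espl1, which encodes separase, -0.96 and -0.14, with adjusted p of 0.458, 0.0712, 0.391 and 0.875.

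Of the kinesin and cytokinesis genes, 5 of 13 fell in controls and 4 of 13 in knockdowns after quantile normalization, and 1 of the 5 and 2 of the 4 were lower in all 3 scalings. Tpx2, the spindle assembly factor that activates Aurora A, read 11.09, 11.04 and 11.59 in the short term controls, then 9.78, 9.88 and 9.96 at 5 days (-1.37, SE 0.21, adjusted p = 0.00733; 0.07 as deposited). In knockdowns it read 11.17, 11.24 and 11.39 against 9.69, 9.47 and 9.77 (-1.62, SE 0.21, adjusted p = 0.00235; -0.27 as deposited). It had the smallest p of the 45 genes in both comparisons, and the times did not overlap.

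Nusap1, which bundles spindle microtubules, went from 10.47, 10.67 and 11.12 to 9.42, 9.45 and 9.68 in controls (-1.24, SE 0.21, adjusted p = 0.0125) and from 10.50, 10.56 and 10.67 to 9.33, 9.28 and 9.32 in knockdowns (-1.26, SE 0.21, adjusted p = 0.00972), and turned to 0.27 and 0.17 as deposited. Hmmr, a spindle protein that is also a hyaluronan receptor, had 10.26, 9.84 and 10.82 against 8.54, 8.62 and 9.07 in controls (-1.57, SE 0.31, adjusted p = 0.0257). It did not pass in knockdowns by this probe set, where 10.32, 9.87 and 9.99 stood against 8.89, 9.29 and 8.45 (-1.18, SE 0.31, adjusted p = 0.0532). Of its other kept probe sets 1 passed there, at -1.51 (limma adjusted p = 0.0154). Both genes were apart between the times in either condition.

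Prc1, the bundler of the central spindle, had -1.004 in controls (adjusted p = 0.0298), turning to 0.46 as deposited. In knockdowns it had levels of 11.15, 11.23 and 11.12 against 10.14, 9.87 and 10.22 (-1.09, SE 0.21, adjusted p = 0.0178), turning to 0.30. The chromosome arm motor Kif22 had -1.31 (adjusted p = 0.0497) and -1.55 (adjusted p = 0.0211), with 0.18 as deposited in controls. The bipolar spindle motor Kif11, the cytokinesis motors Kif20a and Kif23, the microtubule depolymerase Kif2c and the chromokinesin Kif4 ranged from -1.07 to -0.47 over both comparisons without passing. The regulators of the contractile ring, Anln, Ect2 and Racgap1, had -0.45, -0.59 and -0.63 in controls and -0.23, -0.85 and -0.32 in knockdowns. None passed by its brightest probe set. Another probe set of Racgap1 passed in both, at -1.43 and -1.53 (limma adjusted p = 0.0129 and 0.00816).

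Among condensin and chromosome structure genes, 3 of 7 fell in each condition after quantile normalization, and each of these turned in both other scalings. Ncapg, a condensin I subunit, had levels of 10.58, 10.89 and 11.03 against 9.61, 9.61 and 9.62 in controls (-1.22, SE 0.20, adjusted p = 0.0104; 0.28 as deposited). In knockdowns 10.73, 11.15 and 10.90 stood against 9.62, 9.78 and 9.67 (-1.23, SE 0.20, adjusted p = 0.00842; 0.17 as deposited). Its long term controls had an SD of 0.0044, the smallest of the 45 genes.

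Ncapd2, another condensin I subunit, went from 10.54, 10.20 and 10.70 to 9.11, 9.37 and 9.55 in controls (-1.13, SE 0.23, adjusted p = 0.0286) and from 10.38, 10.17 and 10.16 to 9.08, 8.75 and 9.32 in knockdowns (-1.19, SE 0.23, adjusted p = 0.019). Mki67, the Ki-67 antigen that coats mitotic chromosomes and marks cycling cells, went from 10.78, 10.88 and 11.36 to 9.996, 9.75 and 10.15 in controls (-1.05, SE 0.22, adjusted p = 0.0316). The knockdown levels were 10.75, 11.07 and 10.99 against 9.81, 9.93 and 9.81 (-1.09, SE 0.22, adjusted p = 0.0216). Neither gene overlapped between times, and both turned as deposited, to 0.36 and 0.22 for Ncapd2 and to 0.45 and 0.33 for Mki67. The core condensin ATPases had -0.27 and -0.43 for Smc2 and -0.69 and -0.60 for Smc4, and Ncaph had -0.66 and -0.30. Top2a, the decatenating topoisomerase, had -0.73 and -0.55. None of these 4 passed by its brightest probe set. Other probe sets did, at -1.04 and -1.06 for Smc2 (adjusted p = 0.0208 and 0.0164), at -1.22 and -1.08 for Smc4 (adjusted p = 0.0214 and 0.0288), and at -1.19 for another of Smc4 in knockdowns (adjusted p = 0.0189).

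**Figure D3:**
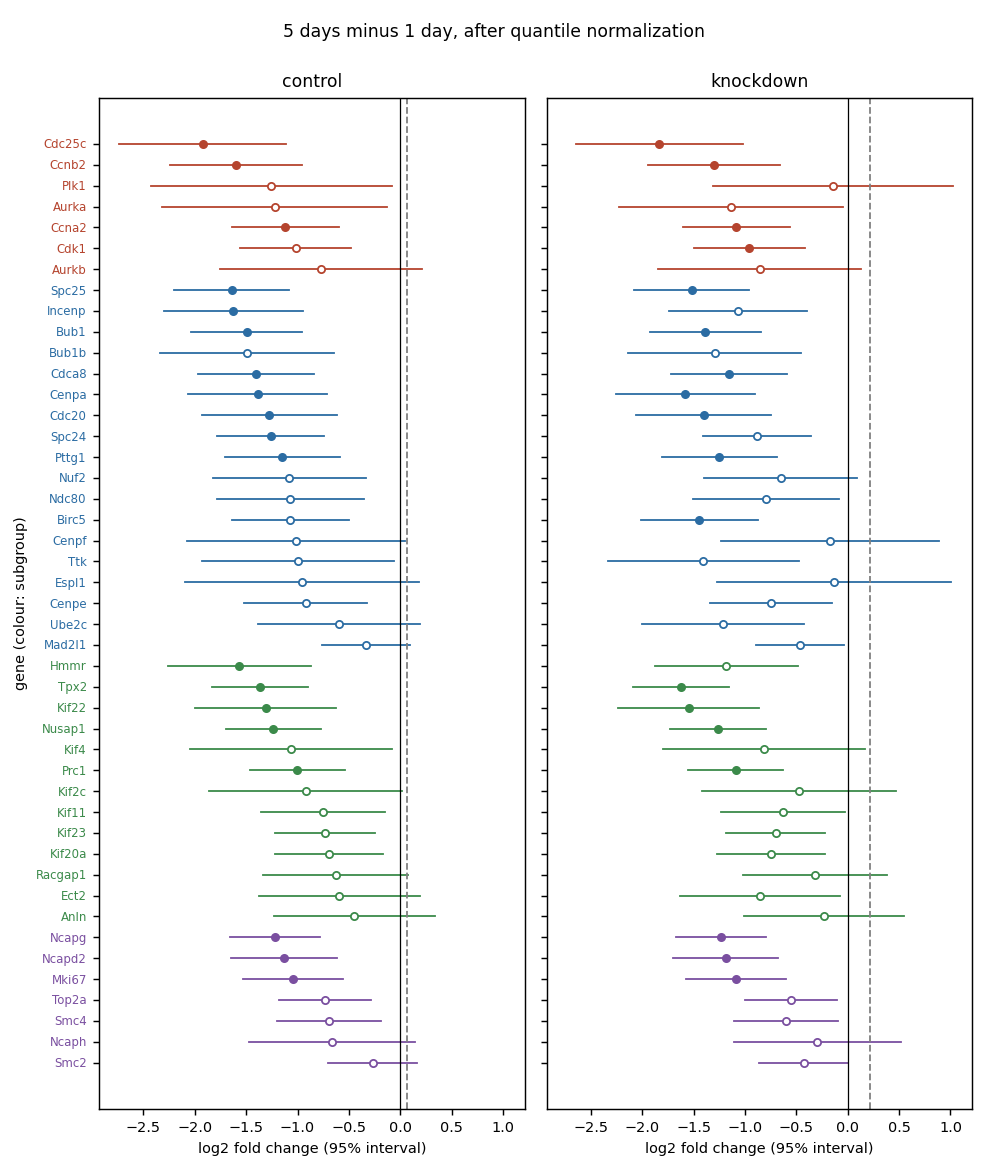
Log2 fold change from 1 day to 5 days after quantile normalization (horizontal axis, with 95% limma intervals) of the 45 genes, coloured and grouped by role, in controls (left) and knockdowns (right); filled points passed the adjusted threshold and the dashed line is the median of all genes, 0.06 and 0.21. The 19 and 18 called genes lie between -1.92 and -0.96; on the deposited scale 11 and 9 of them turn to the higher side.

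At 1 day no difference between knockdown and control passed the test. In limma 0 of 45 genes passed, as did 0% of all probe sets, with 120 of 27022 (0.444%) at an unadjusted p below 0.05, as was 1 of the 45. The median log2 fold change of the 45 genes was -0.18 with 38 of 45 below 0, beside a median of -0.17 over all genes, and 23 of 45 lay below that median. The 95% intervals lay within 1 on either side of 0 for 30 of the 45 genes.

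Spc24 was the 1 gene whose groups did not overlap, where 1.67% of probe sets did not. In controls it read 8.82, 9.12 and 9.10, and the knockdown levels were 8.76, 8.29 and 8.08 (-0.64, SE 0.24, 95% interval -1.16 to -0.11, unadjusted p = 0.0221, adjusted p = 0.832). Within the strong arrays it was -0.93 and within the weak arrays -0.20.

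The other genes with the smallest p of their role are given beside the hybridisation sets. Plk1 read 9.09, 7.98 and 9.80 in controls against 9.04, 7.18 and 8.06 in knockdowns (-0.86, SE 0.53, interval -2.03 to 0.30), and its 3 lowest values were those of the strong arrays. Aurka read 9.63, 8.83 and 10.09 against 9.48, 8.60 and 8.45 (-0.68, SE 0.49, interval -1.77 to 0.41). Espl1 had 8.44, 7.26 and 8.92 against 8.27, 6.69 and 7.34 (-0.78, SE 0.51, interval -1.92 to 0.36). For each of the 3 the strong arrays were the lowest whatever their group, and 2 of the 3 knockdowns but 1 of the 3 controls are strong arrays. Within either set the knockdown mean was also below the control mean for each of these genes. The part of the sets in these differences was not tested.

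Kif2c had 9.01, 8.13 and 9.70 against 9.14, 7.89 and 8.09 (-0.57, SE 0.42) and Kif4 8.91, 8.02 and 9.68 against 8.90, 8.06 and 7.96 (-0.57, SE 0.44). For Ncaph the levels were 9.05, 8.72 and 9.65 against 9.09, 8.498 and 8.34 (-0.50, SE 0.36), and for Ncapd2, given above, the difference was -0.24 (SE 0.23). The 4 genes overlapped between the groups, with adjusted p of 0.832 each. With only strong arrays 21 of 45 genes were lower in knockdowns and the median was 0.02, and with only weak arrays 36 were and it was -0.24. Fluidics stations went with the groups at this time, and station and knockdown cannot be told apart.

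At 5 days 0 of 45 genes passed in limma, as did 0% of probe sets, with 34 (0.126%) at an unadjusted p below 0.05, none of them among the 45. The median was -0.08, with 31 of 45 below 0, beside 0.01 over all genes, and 33 of 45 intervals lay within 1 on either side of 0. The groups did not overlap for 3 genes, where 3.01% of probe sets did not. Tpx2 (-0.23, SE 0.21) and Nusap1 (-0.21, SE 0.21) were lower in the knockdowns and Ncapg (0.08, SE 0.20) higher, by the levels given above. With median scaling Ncapg was at -0.0026, and with all its kept probe sets averaged it was at -0.09, so its direction was not settled. Nusap1 was at 0.0023 with its probe sets averaged. With the description's groups 14 of 45 genes were below 0 and the median was 0.08.

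Long term knockdown 2, the array with the high 3 prime to 5 prime ratio, was the lowest of the 6 for 20 genes and the highest for 10. Long term control 3 was the highest for 28 and long term control 1 the lowest for 12. How often each array was the lowest or highest over all probe sets was not counted. Aurka read 8.02, 8.41 and 8.47 in controls against 8.24, 6.61 and 8.28 in knockdowns (-0.59, SE 0.49, interval -1.68 to 0.50). Ube2c read 10.22, 10.55 and 10.51 against 10.53, 8.97 and 10.24 (-0.51, SE 0.36, interval -1.30 to 0.28). Kif22 had 9.30, 9.22 and 9.70 against 9.09, 8.44 and 9.41 (-0.43, SE 0.31, interval -1.11 to 0.26). In each the other 2 knockdowns lay within or near the control range. Without that array the differences were -0.04, -0.04 and -0.16, and the median of the 45 genes was -0.06.

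Aurkb had 7.57, 8.35 and 8.66 in controls against 8.33, 7.09 and 8.0 (-0.39, SE 0.44), and with scanner as a block it was 0.24. Birc5 read 10.49, 10.49 and 10.66 against the knockdown levels given above (-0.41, SE 0.26, interval -0.98 to 0.15). The differences of Ncapd2 and Mki67 were -0.29 (SE 0.23) and -0.11 (SE 0.22). Adjusted p was 1 for all of these. With scanner as a block the median of the 45 genes was 0.08 in place of -0.08. Here 2 of the 3 controls and no knockdown were read on the scanner that also read the short term arrays. Both values with scanner as a block therefore compare the knockdowns with long term control 1 alone.

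**Figure D4:**
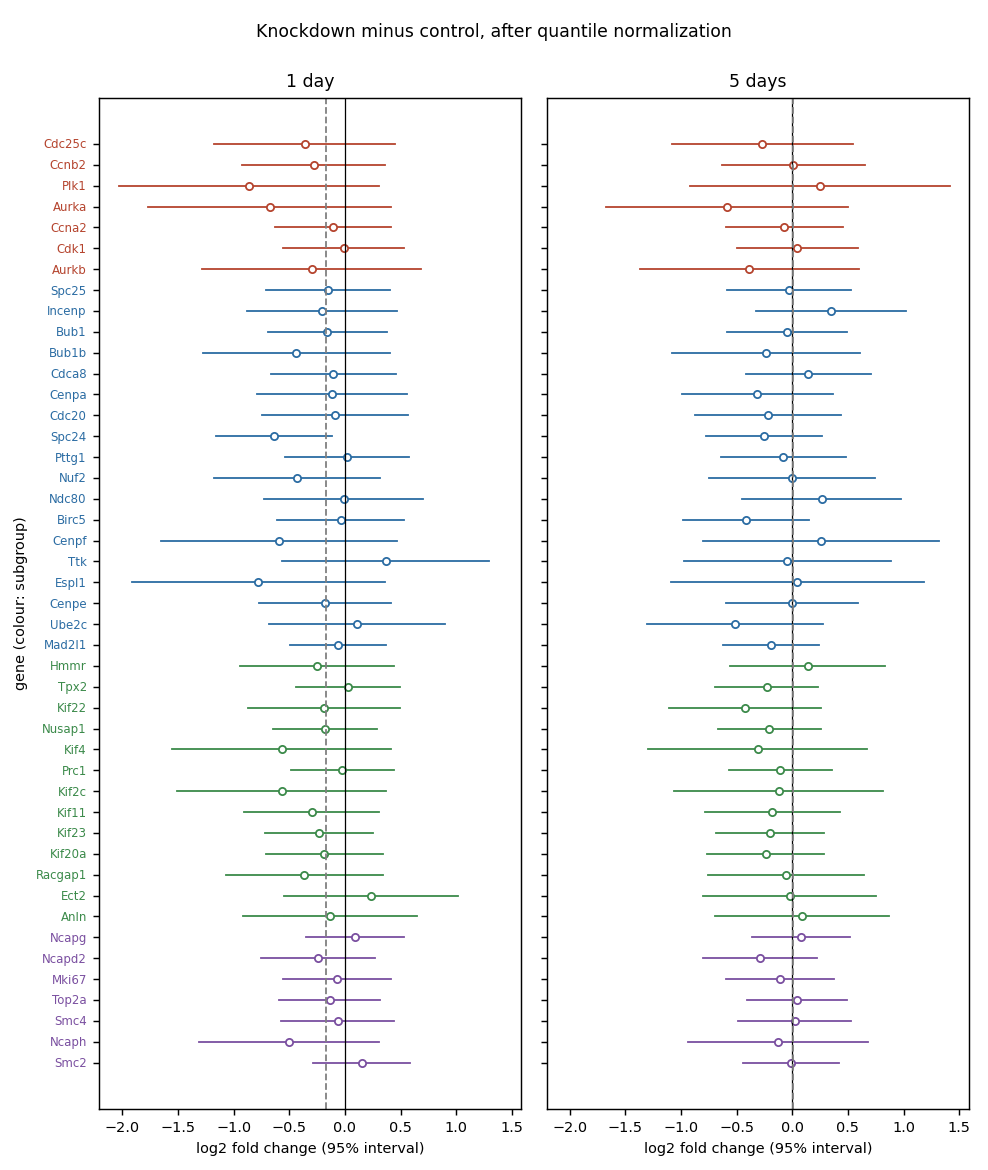
Log2 fold change of knockdown over control after quantile normalization (horizontal axis, with 95% limma intervals) of the 45 genes at 1 day (left) and 5 days (right), coloured and grouped by role; the dashed line is the median of all genes, -0.17 and 0.01. No point is filled because 0 of 45 genes passed at either time, and 1 interval at 1 day, that of Spc24, excludes 0; the direction of Ncapg at 5 days turns under median scaling.

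The knockdown effect was not shown to differ between the times. The difference of the effects passed for 0 of 45 genes and 0% of probe sets in limma, with 55 probe sets (0.204%) at an unadjusted p below 0.05 and none of the 45. Plk1 had the largest difference by the titles, 1.11 (SE 0.75, interval -0.54 to 2.76), from -0.86 at 1 day and 0.25 at 5 days, where it read 7.56, 7.44 and 8.12 in controls and 7.84, 8.34 and 7.68 in knockdowns. Cenpf, a kinetochore and nuclear matrix protein, had 0.85 (SE 0.68) by its brightest probe set. Its levels were 9.38, 8.37 and 10.14 against 9.36, 8.38 and 8.38 at 1 day and 7.86, 8.17 and 8.81 against 8.11, 9.05 and 8.44 at 5 days. Incenp had 0.55 (SE 0.43), with 10.77, 10.81 and 11.38 against 10.74, 10.76 and 10.84 and then 9.17, 9.15 and 9.77 against 9.34, 10.30 and 9.49. The groups overlapped at both times for the 3 genes, and long term knockdown 2 was the highest of the 6 long term arrays in each. Without it the differences were 0.91 for Plk1, 0.59 for Cenpf and 0.26 for Incenp. With the description's groups they were 0.62, 0.34 and -0.14, and the largest was that of Aurka at 1.26 (SE 0.70) in place of 0.09. Ncaph had 0.37 (SE 0.52), Hmmr 0.38 (SE 0.44), Ccnb2 0.29 (SE 0.41), Tpx2 -0.26 (SE 0.30) and Top2a 0.18 (SE 0.29).

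Other genes of cell division moved with time to different extents. Beside the counts below, 1.25% of all probe sets fell past the threshold in controls and 1.93% in knockdowns. Of 30 further kinetochore and centromere genes, 3 fell in controls and 4 in knockdowns, with medians of -0.75 and -0.64. Among them were Sgo1, the shugoshin that protects centromeric cohesin (-1.47 and -1.48, adjusted p = 0.0119 and 0.0101), and Pmf1 of the Mis12 complex (-1.49 and -1.38, adjusted p = 0.015 and 0.0177). Of 26 DNA replication genes 5 fell in each condition, with medians of -0.90 and -0.83; among them were the helicase subunit Mcm5 (-1.57 and -1.14, adjusted p = 0.00653 and 0.0244) and the licensing factor Cdt1 (-1.53 and -1.32, adjusted p = 0.015 and 0.0225). In limma 0 of 16 anaphase-promoting complex genes, 0 of 14 cohesin genes and 0 of 3 other condensin genes passed, with medians of -0.42, 0.01 and -0.64 in controls and -0.21, 0.02 and -0.32 in knockdowns. At an unadjusted p below 0.05 were 4, 2 and 1 of them in controls, where 17.2% of all probe sets were, and 6, 3 and 1 in knockdowns, where 25.1% were. Of 20 transcription regulators of mitotic genes, E2f3, an activator of S phase genes, was the 1 that passed (-1.18 and -1.10, adjusted p = 0.0115 and 0.0137). These are quantile normalized values. On the deposited scale the medians of kinetochore and replication genes turned to 0.07 and 0.35 in controls and stood 1.04 and 0.76 below the median of all genes. Those of anaphase-promoting complex, cohesin and other condensin genes in controls were then 1.02, 1.49 and 0.78, which is -0.09, 0.38 and -0.33 relative to all genes in place of -0.48, -0.06 and -0.70. Past the threshold on the higher side were then 15 of 16, 10 of 14 and 2 of 3 genes, where 12790 of all 27022 probe sets were.

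Markers of cell types were set beside these genes. Over all probe sets 1.25% fell and 2.02% rose past the threshold in controls, and 1.93% and 4.05% in knockdowns. Of 13 intermediate progenitor genes 4 fell in each condition, among them Eomes, the T-box factor of these cells (-1.69 and -2.37, adjusted p = 0.00733 and 0.000782), and Neurog2 (-2.04 and -2.52, adjusted p = 0.000968 and 0.000231). Of 16 apical progenitor genes 0 passed in controls (limma), the median being -0.44. An unadjusted p below 0.05 was reached by 7 of them, beside 17.2% of all probe sets. In knockdowns the glutamate transporter gene Slc1a3 rose (1.20) and Emx2, a cortical homeobox gene, fell (-1.38). On the deposited scale 1 of the 13 intermediate progenitor genes was lower and 4 were higher past the threshold in controls, and 2 and 5 in knockdowns, while 8 and 6 of the 16 apical progenitor genes were higher. Of all 27022 probe sets 345 were then lower and 12790 higher in controls, and 506 and 13027 in knockdowns. The mean level of the mitosis and kinetochore genes was 9.82 to 10.53 over the short term arrays and 8.85 to 9.26 over the long term arrays, that of intermediate progenitor genes 10.04 to 10.59 and 9.27 to 9.84, and that of apical progenitor genes 10.70 to 11.23 and 10.35 to 10.99.

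Some genes that mark interneurons and glia rose by 5 days. In controls 6 of 10 interneuron genes, 3 of 6 astrocyte genes and 2 of 5 oligodendrocyte precursor genes rose, where 2.02% of all probe sets did. In knockdowns 4, 2 and 2 of them rose, where 4.05% of all probe sets did. Dlx2 was at 4.90 and 4.23 and Pdgfra at 4.23 and 4.27. The 14 neuronal genes had 0 calls in limma and medians of 0.65 and 0.62. At an unadjusted p below 0.05 were 3 and 4 of them, where 17.2% and 25.1% of all probe sets were. On the deposited scale 8 of them were higher past the threshold in each condition, where 12790 and 13027 of 27022 probe sets were. Microglial genes had a mean of 5.92 to 7.87 over the short term and 7.52 to 10.51 over the long term arrays, with 0 of 12 called in limma. Endothelial and pericyte genes had 6.72 to 7.69 and 7.07 to 10.56, with 0 of 11 called. At an unadjusted p below 0.05 were 0 and 9 microglial genes and 1 and 2 endothelial and pericyte genes, beside the same 17.2% and 25.1%. None of 6 erythroid genes passed the filter on level. The part of such changes in the makeup of the cells in the values of the mitosis and kinetochore genes was not tested.

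**Figure D5:**
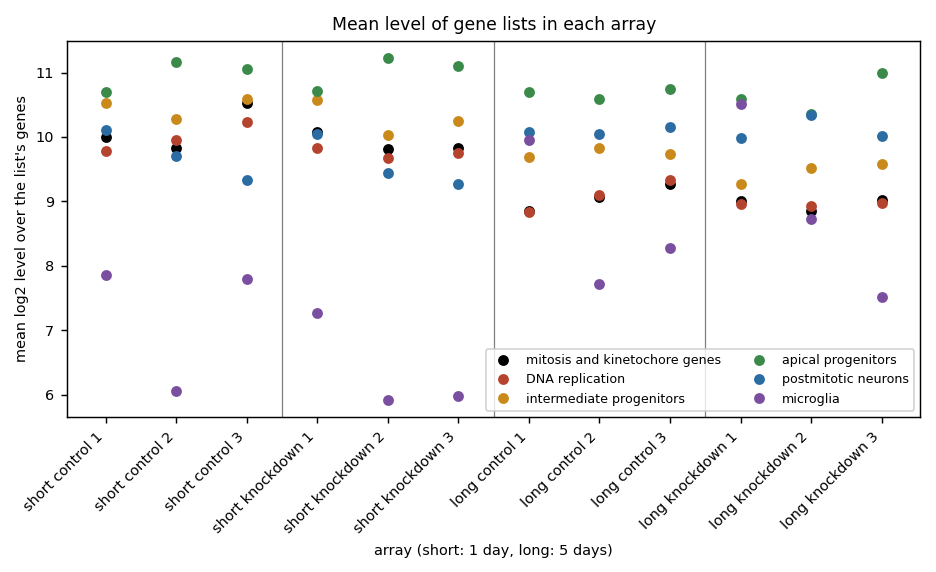
Mean quantile normalized log2 level (vertical axis) over the genes of 6 lists in each of the 12 arrays (horizontal axis, groups divided by grey lines). The mitosis and kinetochore genes (black) lie between 9.82 and 10.53 at 1 day and between 8.85 and 9.26 at 5 days, beside the DNA replication genes, while microglial genes span 5.92 to 10.51; on the deposited scale the median of the mitosis and kinetochore genes is higher, not lower, at 5 days.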

How the data were processed

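Total RNA of 12 samples was labelled with biotin for Affymetrix 3 prime arrays, per the labels' protocols. The table deposited by the authors gives linear intensity values of 45101 probe sets on every array. How probes were combined and whether the authors scaled the arrays is not given in these sources. The instrument files, whose other values are scan and lot fields, per the file headers, gave chip lot, fluidics station and scanner. From the intensities, quantile normalization over the 12 arrays was followed by log2 after adding 16. That log2 step was made here from the deposited values. After removal of 64 control probe sets, the brighter 60% by mean remained, 27022 probe sets. Genes came from the platform annotation, where 34945 probe sets had 1 gene, 932 several and 9160 none, and 34741 symbols were updated through their Entrez ID. Probe sets with several genes named none.

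The 4 group means were estimated in limma 3.58.1 under R 4.3.3 (lmFit and eBayes), which left 8 residual degrees of freedom; p-values were Benjamini-Hochberg adjusted over the kept probe sets. An exact permutation test of 3 against 3 cannot go below p = 0.1 and was not used. The number of arrays limits the precision. The fit was tested on simulated data with known changes; estimates lay near the changes set, but few of the smallest were called, so a count of 0 does not show that small changes are absent. The genes, the other lists and the tests were chosen with earlier results of these data known, so the lists are not independent support.

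Levels in every array are given for the genes of the smallest limma p in each role, up to 3 for the time comparisons and 2 for the knockdown comparisons, and for genes whose groups did not overlap between knockdown and control; of other lists at most 3 genes of the smallest p are named. Promoter windows were matched with Python 3.11.15. Alternatives covered pseudocounts of 1 and 64, other scalings and filters, averaging of probe sets, blocks, subsets of arrays and leaving out each array. The use of control arrays of the shared scanner only, and the groups of the description field for the long term samples, were added after seeing the data.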

Additional observations from a re-analysis of the deposited data

How the results depend on the processing

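Other pseudocounts (1 and 64) and filters kept every count of these genes within 1.5 times its main value of 19 in controls and 18 in knockdowns for the time comparisons, and 0 for the knockdown comparisons. Scaling moved them most. With no normalization between arrays 7 and 6 were called and the medians were 0.21 and 0.18; with arrays scaled to the same median 2 and 1 were called and the medians were 0.058 and 0.032. Single genes turned in controls without normalization, namely Ccna2 (0.25), Tpx2 (0.074), Nusap1 (0.27), Ncapg (0.28), Ncapd2 (0.36) and Mki67 (0.45), and in knockdowns Ccna2 (0.23), Nusap1 (0.17), Prc1 (0.30), Ncapg (0.17), Ncapd2 (0.22) and Mki67 (0.33). With median scaling the turned values were 0.088 for Ccna2, 0.11 for Nusap1, 0.13 for Ncapg, 0.21 for Ncapd2 and 0.30 for Mki67 in controls, and 0.084, 0.022, 0.026, 0.074 and 0.19 in knockdowns with 0.15 for Prc1. At 5 days the knockdown effect of Ncapg turned to -0.0026 with median scaling and to -0.095 with probe sets averaged, and that of Nusap1 to 0.0023 with probe sets averaged. That of Aurkb turned to 0.24 with scanner as a block, where long term control 1 is the only control compared. The difference of effects of Top2a turned to -0.047 with probe sets averaged. With the long term groups taken from the description field, by construction, the 5 day effects turned for Aurka (0.59), Aurkb (0.39), Birc5 (0.41), Ube2c (0.51), Kif22 (0.43), Tpx2 (0.23), Ncapd2 (0.29), Mki67 (0.11), Nusap1 (0.21) and Ncapg (-0.080), and the differences of effects for Incenp (-0.14) and Tpx2 (0.20); 22 and 16 genes were called with time. The other causes were not tested. Of all probe sets, 886 and 1616 passed with time. With the filter applied anew to each scaling this became 13122 and 13508 without normalization and 9249 and 10322 with median scaling. It was 1702 and 3026 with no filter, and 528 and 918 with probe sets averaged over fewer features. Short term arrays of strong hybridisation controls gave 6753 and 12415 probe sets and 29 of these genes in knockdowns, and weak ones 217 probe sets and 0 genes in knockdowns; the lone strong control and lone weak knockdown were assumed to vary like the other groups. Control arrays of the shared scanner gave 279 probe sets and 2 genes. Leaving out 1 array at a time, 2 to 14 genes were called in controls and 2 to 22 in knockdowns, and 247 to 614 and 341 to 7727 probe sets, the last without short term knockdown 1. Medians then ran from -1.22 to -0.87 in controls and from -1.04 to -0.97 in knockdowns. With the replicate block 19 and 19 genes were called. The deviations of same-numbered samples from their group means correlated at 0.92, 0.90 and -0.42 at 1 day and at -0.13, -0.02 and 0.10 at 5 days, so the numbers were not taken as pairs; the block changed no count of these genes by over 1.5 times. Dim genes near the filter have the least signal over background, and their fold changes are understated.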

Other observations

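Apart from the groups, the short term arrays of strong and weak hybridisation controls differed over most probe sets. Of the 45, 20 (44.4%) had all 3 strong arrays below all 3 weak arrays, 3 had them above and 22 overlapped, so 51.1% were apart, where 46.4% of all probe sets were below, 28.8% above and 75.2% apart. The largest differences, strong minus weak, were -1.57 for Plk1, -1.45 for Espl1, -1.25 for Cenpf, -1.24 for Kif2c and -1.15 for Kif4. On the other side stood the checkpoint kinase gene Ttk (1.06), the RhoA activator gene Ect2 (0.73) and the condensin ATPase gene Smc2 (0.27). Mki67 (0.02), Ccna2 (0.04), Smc4 (0.05), Birc5 (0.05) and Tpx2 (-0.06) were nearly the same in both sets. The genes and arrays here were chosen after their values were seen, and the sets come from the arrays' control RNAs, so no test was made.

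Probe sets of the same gene disagreed on the call for 15 of 29 genes with more than 1 kept probe set in controls and for 15 in knockdowns. All 90 kept probe sets were lower at 5 days in controls after quantile normalization, 29 of them past the threshold, and 89 of 90 in knockdowns, 32 past it; on the deposited scale most genes turn, as described above. The exception in knockdowns was a dim probe set of Incenp at 0.03. Some genes called in controls had dimmer probe sets that fell less there and did not pass. The smallest of these falls by gene were -0.02 for Hmmr, -0.29 for Pttg1, -0.40 for Spc25 and -0.42 for Incenp. Others included -0.59 for Incenp, -0.83 for Cdca8, -0.91 and -1.13 for Cdc20 and -0.96 for Ccna2. Such probe sets of Bub1, Cenpa and Tpx2 were at -1.15, -1.23 and -1.24. Racgap1 was not called by its brightest probe set (-0.63 in controls) but was by another at a mean level of 9.02 (-1.43, limma adjusted p = 0.0129). Smc2, at -0.27 by its brightest probe set, had -1.04 by another at 9.48 (adjusted p = 0.0208), and a dim probe set of Cenpa at 6.97 had -2.41 in controls and -3.22 in knockdowns. Probe sets of 1 gene can bind different transcripts or sites, and which was the case here was not tested.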
